A study of Rattus norvegicus with 17 samples.

Results

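RNA of hippocampal synaptosomes was compared between 7 aged impaired rats and 5 adult rats, which are 12 of the 17 arrays in the series. All rats were male F1 hybrids of the Fischer 344 and Brown Norway strains, and each gave 1 Illumina bead array. The adult group was 12 months old. The aged impaired group was 28 months old and had been classed as impaired against adult performance in the probe trials of the Morris water maze, a test of hippocampus-dependent spatial memory. A further 5 rats of 28 months that had performed like adults (aged intact) served as a reference. Their arrays also entered the same statistical fit and its estimate of the spread between arrays. A probe entered the comparison when its signal passed detection (detection p under 0.05 against negative control beads) on every adult array or on every impaired array, which held for 10270 of 22226 probes. A symbol was known for 7234 of these, and they stand for 7183 genes. The question was which transcripts differ between the hippocampal synaptosomes of old rats with a spatial memory deficit and those of mature adults. Age and maze performance both separate the groups, so this comparison alone cannot tell one from the other. The 5 adult arrays were on slide 1 and the 7 impaired arrays on slide 2, so that slide and age group cannot be told apart either. Impaired replicate 4 stood far above the other impaired arrays in a number of immune genes, and results in which it stood apart are given with it and without it.

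Synaptosomes are pinched-off nerve terminals with attached postsynaptic membrane, obtained by fractionating homogenized tissue. They hold local mRNA of nerve endings and also carry fragments of astrocytes, microglia and other cells, so a level measured here is not that of a single cell type. In the ageing brain, microglia are known to increase antigen presentation and complement genes, and astrocytes to increase the intermediate filament vimentin. MHC class II molecules present peptides from endocytosed protein, with the invariant chain Cd74 guarding the groove and cathepsins cutting it away. Complement C1 starts the classical pathway and tags synapses for removal in the developing brain, and Fc gamma receptors bind immunoglobulin G on myeloid cells.

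Mean signals ranged from 342 to 387 on the adult arrays and from 386 to 617 on the impaired arrays, and between 10440 and 11565 probes were detected on each. The fraction held neuronal transcripts in both groups, with 21 tested genes of synaptic vesicles and release whose mean per array lay between -0.30 and 0.15 log2 units from the adult mean. Markers of other cells were also present, with 16 of 23 measured microglia and macrophage genes, 15 of 16 astrocyte genes and 17 of 18 myelin genes passing the filter. Of 19 measured genes of red blood cells and lymphocytes 4 passed (median difference 0.17), and of 11 of choroid plexus and ependyma 3 passed (median -0.08). Of the T cell genes, Cd3e was detected on all 12 arrays and differed by -0.07 without passing, Cd4 was detected on 1 of 5 adult and 4 of 7 impaired arrays, Ccl5 on 0 and 4, Lck on 0 and 2, and Cd3d, Cd3g, Cd8a and Cd8b on none. Adult replicate 4 stood apart from the other adults, with the fewest detected probes, a mean correlation with the other arrays of 0.972 (0.984 to 0.992 on the others), 809 tested probes lying over 0.5 log2 units below every other adult array and 230 above. Fewer cells of a type and less RNA per cell cannot be told apart in such bulk samples.

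Between impaired and adult rats, 44 probes were higher (0.428% of those tested) and 6 were lower (0.0584%) at an adjusted p under 0.05 in the limma fit. The 44 higher probes represent 26 genes by their brightest probe (0.362% of 7183 genes), and the 6 lower probes represent 4 genes (0.0557%). A second, dimmer probe was also called for each of Pon2 and Tmem140, whose brightest probe did not pass, and 16 higher and 2 lower probes have no gene symbol. Some higher probes, such as those of Cdh1, Havcr2 and Klra2, passed the filter only through the impaired group. With detection required on all 12 arrays, 37 probes were higher and 6 lower. All values below are log2 intensities after background correction and quantile normalization, on which a difference of 1 is a doubling, and a difference is always impaired minus adult. The called differences ranged from 0.28 to 2.79 among the higher probes and from -0.34 to -0.56 among the lower ones. The largest differences of probes without a symbol were 2.79, 2.71 and 2.47, or 2.39, 2.26 and 2.12 without impaired replicate 4. The transcripts that these probes bind are not known here. In 110 probes (1.07%) every impaired array lay above every adult array, and in 113 (1.1%) every impaired array lay below, and 38 of the 44 higher and 5 of the 6 lower probes were among them. Among the 26 higher genes were the MHC class II chaperone Cd74, the complement genes Serping1 and C1s, receptors of myeloid cells such as Fcgr2b and Cd53, and Vim and Hspb1 of reactive glia, and among the 4 lower genes were the neuronal genes Necab2 and Pnoc. Of the 30 genes 14 passed in all 17 fits that left out 1 array of the series, and for the other 16 the arrays without which they did not pass are given with the gene. The split depends on the scaling: with each array scaled to a common median 56 probes were higher and none lower, with the deposited signals not normalized 345 and none, without background correction 46 and 12, and with the unmodified neqc background 27 and 11.

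**Figure D1:**
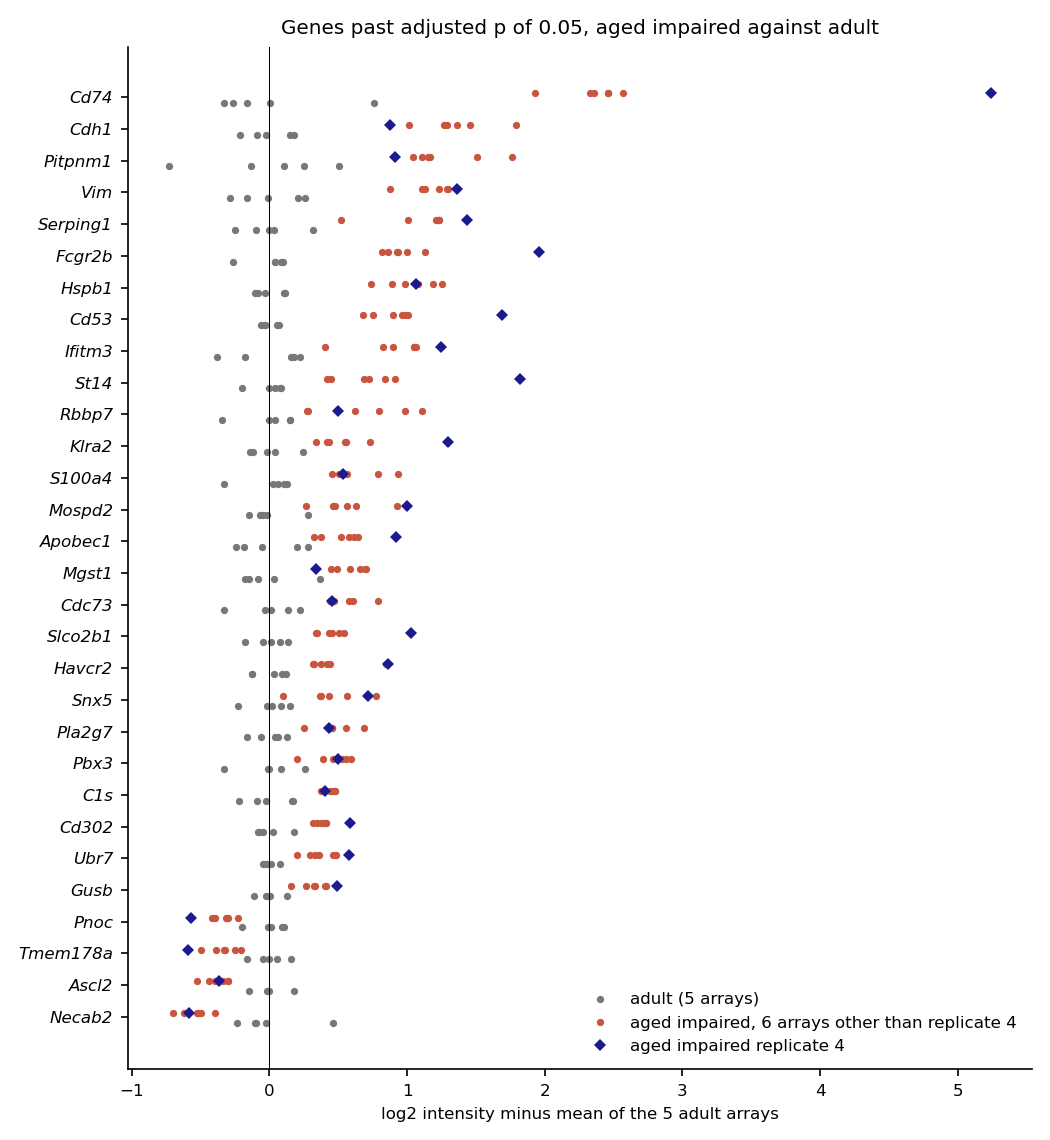
Log2 intensity of each called gene on every array, as the distance from the mean of the 5 adult arrays (horizontal axis). Grey points are adult arrays, red points the 6 impaired arrays other than replicate 4, and blue diamonds impaired replicate 4, which lies far to the right for Cd74 (12.29 against at most 9.62 on the others) and within the other impaired arrays for Hspb1.

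The largest difference of a named gene was that of Cd74, the invariant chain of MHC class II. Its log2 intensity was 6.78, 6.72, 6.88, 7.05 and 7.80 on the 5 adult arrays and ranged from 8.97 to 12.29 (median 9.51) on the 7 impaired arrays. Every impaired array lay above every adult array, and the highest, impaired replicate 4, exceeded the next by 2.67. The difference was 2.76 ± 0.39 (SE, adjusted p = 0.000807), a 6.79-fold higher level, and it was 2.35 (adjusted p = 4.55e-08) without impaired replicate 4, or 5.1-fold. The difference was therefore present on each impaired array and not on replicate 4 alone. The 300 bases around its transcription start are shown because its difference was the largest of a named gene. They lie at chr18:56526956-56527255 on the plus strand of GRCr8 (RefSeq), 250 bases before the start and 50 after. The CCAAT box, the letters ATTGG on either strand, is in capitals.
Cd74: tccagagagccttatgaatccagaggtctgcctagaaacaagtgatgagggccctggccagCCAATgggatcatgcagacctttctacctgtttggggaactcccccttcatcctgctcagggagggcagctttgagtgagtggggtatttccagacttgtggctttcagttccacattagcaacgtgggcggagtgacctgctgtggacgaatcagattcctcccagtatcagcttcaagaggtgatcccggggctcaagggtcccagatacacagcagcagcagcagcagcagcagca
The box begins 189 bases before the start. The same letters occur in 12549 of 33469 RefSeq promoters of that length (37.5%) and in 8 of the 21 called genes that have a promoter there.

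The other tested genes of MHC class II and antigen processing had smaller differences. The class II alpha and beta chains that the study followed by quantitative PCR (Hla-dra and Hla-drb1) have no probe with a symbol here. Their levels were therefore not examined, and the study reported a larger ratio for Hla-drb1 than for Cd74 in synaptosomes. Of 23 listed genes 16 have a probe and 12 passed the filter, all 12 had a difference above 0, and 1 (Cd74) passed the test, against 26 of 7183 higher over all genes. The median of the 12 was 0.42 (without impaired replicate 4 0.33), against -0.04 over all 7183 genes, of which 2849 had a difference above 0. RT1-DMb, the beta chain of the peptide editor DM, had 9.29, 9.15, 9.23, 9.40 and 9.38 on the adult and 9.63, 9.82, 9.68, 11.21, 9.70, 9.80 and 9.85 on the impaired arrays. Its groups did not overlap, and the difference of 0.67 ± 0.20 (SE, adjusted p = 0.105) passed the test when impaired replicate 4 was left out, as 0.46 (adjusted p = 0.0116). Ifi30, a thiol reductase that unfolds antigens in the lysosome, gave the same picture, with 0.60 ± 0.21 (SE, adjusted p = 0.157) over all arrays and 0.38 (adjusted p = 0.0285) without replicate 4. Proteases of the pathway lay just outside the threshold, with Ctsd (cathepsin D) at 0.67 ± 0.15 (SE, adjusted p = 0.0518), Lgmn (legumain) at 0.34 ± 0.08 (SE, adjusted p = 0.0551) and Ctse (cathepsin E) at 0.59 ± 0.14 (SE, adjusted p = 0.0565). In Lgmn the impaired arrays ranged from 10.36 to 10.86 (median 10.57) and all lay above the adult arrays, which ranged from 10.21 to 10.30. In Ctsd 1 adult array reached 11.00 and overlapped the impaired range of 10.82 to 11.68 (median 11.01). Ctss (cathepsin S), which trims the invariant chain, stood at 0.49 ± 0.14 (SE, adjusted p = 0.0906), with 1 adult array of 12.93 above the lowest impaired one of 12.87. The class II regulator Ciita and RT1-Ha were detected on none of the 12 arrays. The list mean of the 6 impaired arrays other than replicate 4 ranged from 0.39 to 0.56 above the adult mean, above the adult range of -0.05 to 0.07, and replicate 4 lay at 1.15.

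Complement was represented by Serping1 and C1s. Serping1, the C1 inhibitor, had 6.65, 6.37, 6.52, 6.93 and 6.61 on the adult arrays and ranged from 7.13 to 8.04 (median 7.84) on the impaired arrays. Even the lowest impaired array exceeded the highest adult one, and the difference was 1.12 ± 0.14 (SE, adjusted p = 0.000245), and replicate 4 was the highest impaired array by a margin of 0.20. C1s, a serine protease of the C1 complex, had 8.30, 7.91, 8.04, 8.30 and 8.10 on the adult arrays, and its 7 impaired arrays lay between 8.51 and 8.61, the narrowest impaired spread among the called genes. This difference was 0.44 ± 0.09 (SE, adjusted p = 0.0267), and it did not pass without adult replicates 2, 3 or 5 or impaired replicate 7 (adjusted p from 0.0528 to 0.0797). Both were called without replicate 4 as well, at 1.07 and 0.45. Of 26 listed complement genes 20 have a probe and 15 passed the filter, 13 of them had a difference above 0 (2849 of 7183 over all genes), and the median was 0.63 (0.45 without replicate 4). C4b encodes the component C4, which C1s cleaves, and it is the member in which replicate 4 stood furthest from the other impaired arrays. Its log2 intensity was 7.73, 7.42, 7.28, 7.81 and 7.69 on the adult arrays and 8.62, 8.71, 8.66, 12.99, 8.77, 8.88 and 8.57 on the impaired arrays. All impaired arrays were higher than all adult arrays, and replicate 4 exceeded the next impaired array by 4.10. Over all 7 arrays the difference was 1.73 ± 0.54 (SE, adjusted p = 0.123), and without replicate 4 it was 1.12 ± 0.14 (SE, adjusted p = 0.000133). C1qa, a chain of the C1q recognition molecule, showed the same on a smaller scale, with 1.17 ± 0.30 (SE, adjusted p = 0.081) over all arrays and 0.87 (adjusted p = 0.0116) without replicate 4, and adult replicate 4 was the lowest array (8.90 against 9.87 to 10.05). C1qb, another C1q chain, and C2, the protease partner of C4, had 0.63 and 0.73 with replicate 4 and 0.36 and 0.34 without it, and passed in neither. The integrin chains Itgam and Itgb2, which form complement receptor 3, had 0.81 (adjusted p = 0.011) and 0.60 (adjusted p = 0.0406) without replicate 4 and missed the threshold with it (adjusted p = 0.0551 and 0.052). In all, 6 of the 15 complement genes passed without replicate 4 and 2 with it, against 46 and 26 of 7183 over all genes.

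Genes of the leukocyte surface were also among those that rose. Cd53, a leukocyte tetraspanin, had 7.33, 7.31, 7.20, 7.23 and 7.23 on the adult arrays and ranged from 7.94 to 8.95 (median 8.22) on the impaired arrays. The adult arrays spanned little and the groups did not overlap, with a difference of 1.00 ± 0.13 (SE, adjusted p = 0.000287), or 0.88 without replicate 4. Fcgr2b, the inhibitory Fc gamma receptor, had 6.37, 6.00, 6.30, 6.35 and 6.30 on the adult arrays and ranged from 7.09 to 8.23 (median 7.20), again with no overlap, and differed by 1.09 ± 0.15 (SE, adjusted p = 0.000807), or 0.94 without replicate 4. The activating receptors Fcgr1a, Fcgr2a and Fcgr3a had differences of 0.64, 0.43 and 0.77 that did not pass (adjusted p from 0.186 to 0.253), and they were 0.38, 0.28 and 0.38 without replicate 4. Tyrobp, a signalling adaptor of the same list, stood at 0.54 and 0.39. Of the 9 tested genes of Fc receptors and adaptors 1 passed, against 26 of 7183 higher over all genes. Havcr2, also called Tim-3, a checkpoint receptor, differed by 0.51 ± 0.10 (SE, adjusted p = 0.0244). It was detected on only 3 of 5 adult arrays and passed the filter through the impaired group, so that its p-value was not read as support for a change. The call was lost without adult replicates 1, 3 or 4 (adjusted p from 0.0553 to 0.0658). Klra2, a lectin-like receptor of the Ly49 family, was detected on none of the adult and on all of the impaired arrays, and passed the filter only through the latter, so that its p-value was not read as support for a change. With the background correction and offset of the main fit, it was at least 1.53-fold higher over all 7 impaired arrays, replicate 4 the highest of them (adjusted p = 0.0486). The measured difference was 0.62, 0.50 (adjusted p = 0.0223) without replicate 4, and 0.06 (adjusted p = 0.161) with the unmodified neqc background. Its call was the least stable of the 30 beside those of Snx5 and Rbbp7, since it passed in 4 of the 17 fits that left out 1 array and did not pass without adult replicates 1, 2, 3 or 5 or intact replicates 1, 2, 3 or 5 or impaired replicates 1, 2, 3, 5 or 7 (adjusted p from 0.051 to 0.0966). The bound sets the mean of the impaired arrays against the lowest signal that passed detection on each adult array, or the probe's own value where higher. It does not carry over to the neqc background, where the measured difference lay below it. Ly49 and MHC genes have near-identical relatives in the rat genome, and a probe may bind more than 1 of them.

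Among 16 tested genes of microglia and macrophages, 15 had a difference above 0, with a median of 0.52 (0.36 without replicate 4), and 1 (Cd53) passed, or 3 without replicate 4. Over all 7183 genes 2849 had a difference above 0 and 26 passed as higher, or 46 without replicate 4. The list's summed linear intensity ranged from 13500 to 16919 on the adult arrays. It ranged from 18200 to 19848 on the 6 other impaired arrays, and was 42812 on replicate 4. This sum is weighted to bright members such as Ctss, whose groups overlapped. The list also shares members with the immune lists, among them C1qa, C1qb, Itgam, Tyrobp, Fcgr3a and Ctss, so it is not a separate measure beside them. Of its markers without a tested probe, Ptprc was detected on 0 of 5 adult and 6 of 7 impaired arrays and Cd163 on none of either. The part of microglial RNA in the immune results was not tested. The members differed among themselves. P2ry12, a purinergic receptor of resting microglia, stood at 0.43 ± 0.12 (SE, adjusted p = 0.0899) and 0.37 without replicate 4, Trem2 at 0.39 and 0.34, and Cd68, a lysosomal protein of phagocytes, at 0.98 and 0.56. Aif1, which encodes the microglial protein Iba1, had 0.16 (adjusted p = 0.641) over all arrays and -0.01 without replicate 4, so that its sign turned when that array was left out. A marker of microglia in general and receptors of the same cells therefore gave different values.

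**Figure D2:**
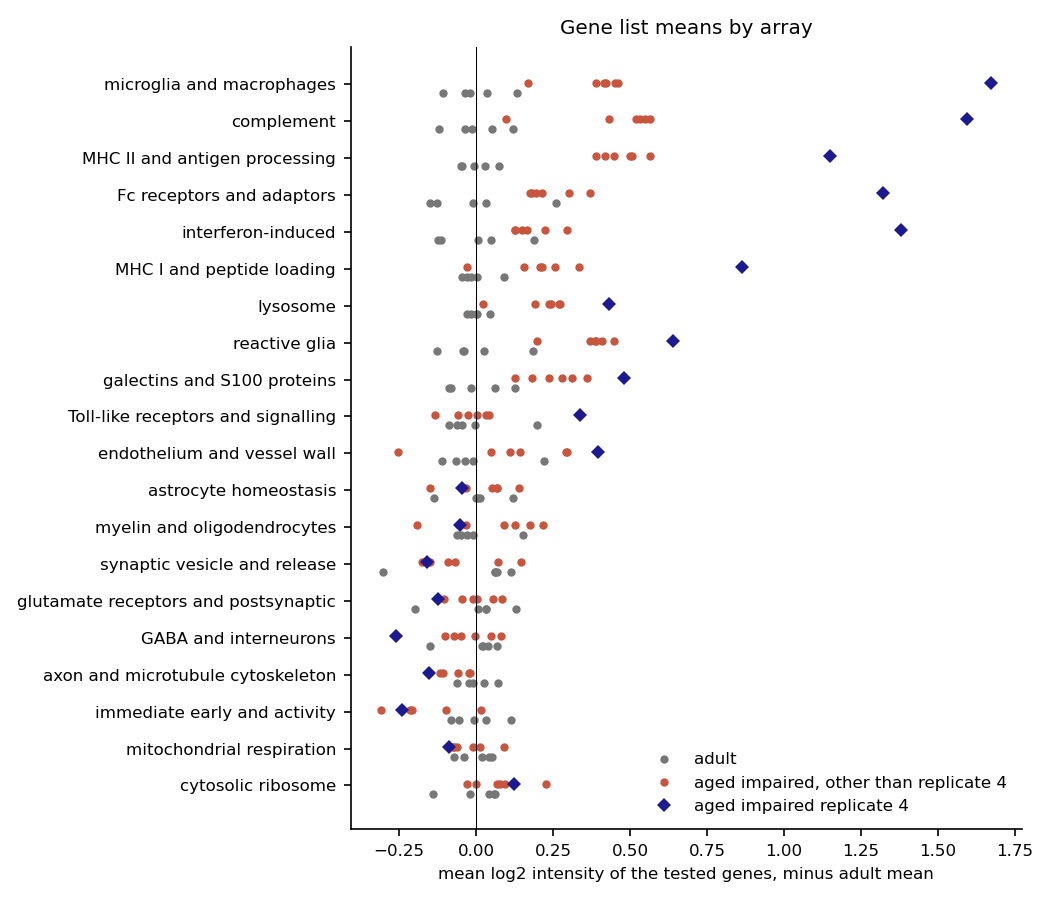
Mean log2 intensity over the tested genes of 20 lists on each array, as the distance from the adult mean (horizontal axis). Grey points are adult arrays, red points impaired arrays and the blue diamond impaired replicate 4; replicate 4 lies at 1.67 in the microglia list and at -0.26 in the GABA and interneuron list, and in the MHC II list the other impaired arrays lie above all adult arrays.

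Vim and Hspb1, of the reactive glia list, had 2 of the 3 smallest p-values of the comparison and passed in every alternative tried. The size of the Hspb1 difference depended on the alternative, from 0.26 to 1.08, while that of Vim stayed between 1.11 and 1.34. Vim, the intermediate filament vimentin, had 9.11, 8.56, 8.69, 9.06 and 8.84 on the adult arrays and 9.96, 9.98, 9.72, 10.21, 10.15, 10.08 and 10.14 on the impaired arrays. No adult array reached the lowest impaired one, and the difference was 1.18 ± 0.12 (SE, adjusted p = 1.85e-05), or 2.27-fold. Hspb1, the small heat shock protein Hsp27, had 5.98, 6.06, 6.00, 6.20 and 6.19 on the adult arrays and ranged from 6.82 to 7.34 (median 7.15) on the impaired arrays, a difference of 1.03 ± 0.10 (SE, adjusted p = 1.85e-05) or 2.04-fold. Without replicate 4 the differences were 1.16 and 1.02. Among 22 tested heat shock proteins and chaperones Hspb1 was the 1 that passed, the list's median was -0.08, and the stress-inducible cytosolic chaperone Hsp90aa1 stood at 0.35 ± 0.12 (SE, adjusted p = 0.148). The promoter of Hspb1 (chr12:26432252-26432551, minus strand, GRCr8, RefSeq) is shown because it was the 1 called gene of that list. Both matches to GAANNTTC, the inverted repeat at the core of a heat shock element, are in capitals.
Hspb1: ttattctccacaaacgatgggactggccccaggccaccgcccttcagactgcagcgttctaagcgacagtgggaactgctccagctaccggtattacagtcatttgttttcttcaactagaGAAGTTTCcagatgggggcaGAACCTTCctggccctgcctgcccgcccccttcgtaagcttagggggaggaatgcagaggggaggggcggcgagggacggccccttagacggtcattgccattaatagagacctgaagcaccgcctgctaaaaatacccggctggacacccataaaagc
They begin 129 and 109 bases before the start, and these letters, searched on both strands, occur in 2875 of the 33469 promoters (8.59%) and in 2 of the 21 called genes with a promoter there.

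S100a4, a calcium-binding protein of motile and reactive cells, had 7.96, 7.61, 8.06, 8.04 and 7.99 on the adult arrays and ranged from 8.39 to 8.87 (median 8.48) on the impaired arrays, with a difference of 0.62 ± 0.12 (SE, adjusted p = 0.0202) that did not pass without adult replicate 2 or impaired replicate 7 (adjusted p from 0.056 to 0.0615). Its relative S100a6 stood at 0.59 ± 0.14 (SE, adjusted p = 0.0707) with 1 adult array of 6.53 inside the impaired range, and S100b, which astrocytes express at rest, at 0.20 ± 0.08 (SE, adjusted p = 0.204). The lectin Lgals3 (galectin-3), a marker of activated microglia, had 6.96, 6.86, 7.07, 7.26 and 6.97 on the adult arrays and 7.71, 7.50, 7.37, 8.92, 7.74, 7.81 and 7.87 on the impaired arrays. These groups did not overlap, and the difference of 0.82 ± 0.19 (SE, adjusted p = 0.054) passed when replicate 4 was left out, as 0.64 (adjusted p = 0.00703). Of 12 tested galectins, S100 proteins and annexins 10 had a difference above 0 (2849 of 7183 over all genes), with a median of 0.20, and 1 passed, or 2 without replicate 4. Cp (ceruloplasmin), a copper-carrying ferroxidase of astrocytes, stood at 0.70 ± 0.19 (SE, adjusted p = 0.0923) and 0.53 without replicate 4. Of 10 tested genes of reactive glia 2 passed, or 3 without replicate 4, against 26 and 46 of 7183 higher over all genes. The median of the 10 was 0.16, and 8 had a difference above 0. The reactive markers Serpina3n, Lcn2, Steap4 and S1pr3 were detected on none of the 12 arrays. Of 15 tested genes of resting astrocytes 0 passed and 7 had a difference above 0.

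Interferon-induced genes gave 1 call of 13 tested, against 26 of 7183 higher over all genes. The called gene was Ifitm3, a membrane protein that blocks virus entry. Its log2 intensity was 6.27, 5.91, 5.71, 6.31 and 6.25 on the adult arrays and ranged from 6.49 to 7.33 (median 7.14) on the impaired arrays. The groups did not overlap, with a difference of 0.93 ± 0.16 (SE, adjusted p = 0.00586) and 0.88 without replicate 4. The list's median was 0.32 over all arrays and 0.11 without replicate 4, and its list mean on replicate 4 was 1.38 against at most 0.29 on the other impaired arrays. Gbp2 and Mx1, a guanylate-binding protein and an antiviral dynamin-like protein, had 0.84 and 0.32 with replicate 4 and 0.45 and 0.06 without it, and passed in neither. Ifitm3 passed with that array and without it. Its promoter (chr1:205541709-205542008, minus strand, GRCr8, RefSeq) is shown because it was the 1 called gene of the list, with the core of an interferon-stimulated response element, GAAA and again GAAA after 2 bases of any kind, in capitals.
Ifitm3: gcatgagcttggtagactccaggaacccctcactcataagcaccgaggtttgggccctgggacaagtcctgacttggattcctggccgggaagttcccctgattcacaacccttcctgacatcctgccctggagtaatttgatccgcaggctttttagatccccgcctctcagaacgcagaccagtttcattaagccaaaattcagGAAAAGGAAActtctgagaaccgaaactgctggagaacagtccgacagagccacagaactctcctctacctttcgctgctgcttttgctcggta
The match begins 44 bases before the start. It occurs on either strand in 1312 of the 33469 promoters (3.92%) and in no other of the 21 called genes with a promoter there. Its last bases overlap a match to GAANNTTC.

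MHC class I and peptide loading gave no call among 17 tested genes and 2 without replicate 4, against 26 and 46 of 7183 higher over all genes. Its median was 0.24 and 0.19. RT1-A1, a classical class I heavy chain, had 10.68, 10.55, 10.58, 10.28 and 10.76 on the adult arrays and 11.19, 11.25, 10.87, 12.79, 11.10, 11.27 and 11.25 on the impaired arrays. Adult and impaired arrays did not overlap, and the difference was 0.82 ± 0.22 (SE, adjusted p = 0.0849) with replicate 4 and 0.58 (adjusted p = 0.00264) without. RT1-A2 followed at 0.62 ± 0.17 (SE, adjusted p = 0.0959) and 0.44 (adjusted p = 0.0174). The light chain B2m stood at 0.35 ± 0.11 (SE, adjusted p = 0.132) and 0.27 (adjusted p = 0.182), and Psmb9, a subunit of the immunoproteasome, at 0.84 ± 0.25 (SE, adjusted p = 0.113) and 0.59 (adjusted p = 0.0507).

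Lysosomal genes had small differences, most of them above 0. Of 29 tested genes 25 had a difference above 0 (2849 of 7183 over all genes), and the median was 0.22 (0.19 without replicate 4). In 7 every impaired array lay above every adult array (74 of 7183 over all genes), and 1 passed (26 of 7183). That gene was Gusb, the hydrolase beta-glucuronidase, with 7.66, 7.41, 7.52, 7.53 and 7.50 on the adult arrays and a range from 7.69 to 8.02 (median 7.86) on the impaired arrays. Its groups did not overlap, and the difference was 0.34 ± 0.07 (SE, adjusted p = 0.0267), but the call was lost without adult replicates 2, 3, 4 or 5 or impaired replicates 5 or 7 (adjusted p from 0.0509 to 0.0758). Without adult replicate 4, 0 of the 29 passed.

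Pla2g7, which cleaves platelet-activating factor, had 9.12, 9.01, 8.91, 9.20 and 9.14 on the adult arrays and ranged from 9.33 to 9.77 (median 9.53) on the impaired arrays, a difference of 0.47 ± 0.08 (SE, adjusted p = 0.00802). Mgst1, a microsomal glutathione transferase, differed by 0.56 ± 0.10 (SE, adjusted p = 0.00908), although 1 adult array (9.92) lay above the lowest impaired one (9.89). The called probe of Pon2, a lactonase of the paraoxonase family, differed by 0.51 ± 0.09 (SE, adjusted p = 0.00954), and its brighter probe by 0.19 ± 0.08 (SE, adjusted p = 0.221). For Tmem140, a transmembrane protein, the corresponding values were 0.48 ± 0.09 (SE, adjusted p = 0.0159) and 0.23 ± 0.10 (SE, adjusted p = 0.24), so both genes gave different answers by probe. Pitpnm1, which moves phosphatidylinositol between membranes, had 8.82, 8.56, 8.18, 7.58 and 8.41 on the adult arrays and ranged from 9.22 to 10.07 (median 9.46) on the impaired arrays. No overlap was seen, adult replicate 4 was the lowest adult array, and the difference was 1.24 ± 0.18 (SE, adjusted p = 0.00132), or 2.36-fold. Slco2b1, an organic anion transporter, differed by 0.52 ± 0.10 (SE, adjusted p = 0.0205), with impaired replicate 4 at 9.86 and the other 6 between 9.16 and 9.37. Without replicate 4 the difference was 0.44 (adjusted p = 0.00751), and the call was lost without adult replicates 3 or 4 (adjusted p from 0.0555 to 0.0628).

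Cdh1, the epithelial adhesion molecule E-cadherin, was measured by a dim probe that passed the filter through the impaired group, so that its p-value was not read as support for a change. Its values were 5.25, 5.23, 4.86, 5.05 and 4.98 on the adult arrays, of which 3 passed detection, and 6.36, 6.53, 6.43, 5.95, 6.08, 6.86 and 6.34 on the impaired arrays, all of which passed. The whole impaired group lay above the adult group, here with replicate 4 as the lowest impaired array, and the difference was 1.29 ± 0.13 (SE, adjusted p = 1.85e-05), and 1.36 without replicate 4. The adult level was partly not above background, and with the unmodified neqc background the Cdh1 difference was 0.18 (adjusted p = 0.0169). St14, the membrane protease matriptase, had 5.80, 5.76, 5.52, 5.71 and 5.80 on the adult arrays and ranged from 6.14 to 7.54 (median 6.44) on the impaired arrays, where replicate 4 lay 0.91 above the next. It differed by 0.83 ± 0.18 (SE, adjusted p = 0.0322), and by 0.67 (adjusted p = 0.00378) without replicate 4, and the call was lost without adult replicates 2, 3, 4 or 5 or impaired replicates 6 or 7 (adjusted p from 0.0607 to 0.089). Cd302, a C-type lectin receptor, had 10.54, 10.31, 10.39, 10.28 and 10.27 and ranged from 10.68 to 10.95 (median 10.75), a difference of 0.41 ± 0.07 (SE, adjusted p = 0.00773), or 0.38 without replicate 4. Mospd2, a tether of the endoplasmic reticulum, and Snx5, a sorting nexin of endosomes, differed by 0.62 ± 0.13 (SE, adjusted p = 0.0322) and 0.48 ± 0.10 (SE, adjusted p = 0.0459), each with overlapping groups. The call of Mospd2 was lost without adult replicates 2, 3, 4 or 5 or impaired replicates 3 or 7 (adjusted p from 0.0562 to 0.0964). Snx5 passed in only 3 of the 17 fits that left out 1 array, and did not pass without adult replicates 2, 3, 4 or 5 or intact replicates 1, 2, 3 or 5 or impaired replicates 2, 3, 4, 5, 6 or 7 (adjusted p from 0.0519 to 0.116).

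Nuclear and RNA-modifying proteins made up the remaining higher genes. Cdc73, a subunit of the Paf1 transcription elongation complex, differed by 0.54 ± 0.10 (SE, adjusted p = 0.00882), and Ubr7, a ubiquitin ligase, by 0.39 ± 0.07 (SE, adjusted p = 0.012), each with no overlap between the groups. Apobec1, the cytidine deaminase that edits apolipoprotein B mRNA, differed by 0.57 ± 0.11 (SE, adjusted p = 0.0189), with 5.80, 5.88, 5.55, 5.41 and 5.35 on the adult arrays and a range from 5.92 to 6.52 (median 6.18) on the impaired arrays. Pbx3, a homeobox transcription factor, and Rbbp7, a histone-binding chaperone, differed by 0.46 ± 0.09 (SE, adjusted p = 0.0207) and 0.65 ± 0.14 (SE, adjusted p = 0.0486). Pbx3 had 1 adult array of 9.95 above the lowest impaired array of 9.89, while the groups of Rbbp7 did not overlap. Cdc73 and Ubr7 passed in each fit that left out 1 array. The call of Apobec1 was lost without adult replicates 3, 4 or 5 (adjusted p from 0.0551 to 0.0736), and that of Pbx3 was lost without adult replicates 3, 4 or 5 or impaired replicate 7 (adjusted p from 0.0509 to 0.0645). Rbbp7 passed in 4 of those 17 fits, and did not pass without adult replicates 1, 2, 3, 4 or 5 or intact replicates 1, 2, 3 or 5 or impaired replicates 3, 5, 6 or 7 (adjusted p from 0.0535 to 0.122).

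The 4 lower genes changed by small amounts. Necab2, a neuronal calcium-binding protein, had 8.81, 9.02, 8.94, 9.51 and 8.95 on the adult arrays and ranged from 8.34 to 8.65 (median 8.52) on the impaired arrays, and fell by 0.55 ± 0.12 (SE, adjusted p = 0.0335). Pnoc, the precursor of the neuropeptide nociceptin, had 9.51, 9.49, 9.30, 9.60 and 9.59 and ranged from 8.93 to 9.27 (median 9.18), and fell by 0.36 ± 0.08 (SE, adjusted p = 0.0353). In each, all impaired arrays lay below all adult arrays. Tmem178a, a transmembrane protein, fell by 0.37 ± 0.08 (SE, adjusted p = 0.0322), and Ascl2, a basic helix-loop-helix transcription factor, by 0.38 ± 0.08 (SE, adjusted p = 0.0253), also with no overlap. The call of Necab2 was lost without adult replicates 2, 3, 4 or 5 or intact replicate 3 or impaired replicates 2, 3, 5, 6 or 7 (adjusted p from 0.0501 to 0.0729), and that of Pnoc was lost without adult replicates 1, 2, 4 or 5 or impaired replicates 3, 4, 6 or 7 (adjusted p from 0.0519 to 0.101). That of Tmem178a was lost without adult replicates 1, 3, 4 or 5 or impaired replicates 3 or 7 (adjusted p from 0.0553 to 0.0906), and that of Ascl2 was lost without adult replicates 2, 3 or 4 or impaired replicate 7 (adjusted p from 0.0591 to 0.0674), so that none of the 4 passed without adult replicate 4 or without impaired replicate 7.

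No neuronal list held a call. The median difference was -0.07 over 21 genes of synaptic vesicles and release, -0.03 over 18 glutamate receptors and postsynaptic proteins, -0.12 over 20 GABA and interneuron genes and -0.12 over 19 genes of the axonal cytoskeleton, against -0.04 over all genes. Npy and Sst, neuropeptides of interneurons, had -0.27 ± 0.10 (SE, adjusted p = 0.165) and -0.26 ± 0.12 (SE, adjusted p = 0.271). The 5 adult arrays of Npy lay within 10.63 to 10.69, and its impaired arrays ranged from 9.99 to 10.58 (median 10.49), all of them lower. Gabra2, a subunit of the GABA-A receptor, stood the other way at 0.67 ± 0.20 (SE, adjusted p = 0.114), with adult replicate 4 at 7.73 and the other adults at 8.90 or more. Gabrd, an extrasynaptic GABA-A subunit, had -0.34 ± 0.12 (SE, adjusted p = 0.165), Gad1, which makes GABA, -0.19 ± 0.09 (SE, adjusted p = 0.301), and the neuropeptide Cck -0.32 ± 0.10 (SE, adjusted p = 0.116). Slc17a6, a vesicular glutamate transporter, stood at -0.44 ± 0.16 (SE, adjusted p = 0.169). Dnm1, the dynamin of vesicle endocytosis, had -0.21 ± 0.09 (SE, adjusted p = 0.216), and Stmn2, a microtubule regulator of axons, -0.18 ± 0.06 (SE, adjusted p = 0.142) with no overlap between the groups. Tubb2b, a neuronal beta tubulin, had -0.40 ± 0.15 (SE, adjusted p = 0.165). None of these values passed, and none is called a change.

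Lists of cell maintenance and of other cells held no call. The median was -0.02 over 40 genes of mitochondrial respiration, 0.07 over 47 of the cytosolic ribosome, -0.08 over 30 of proteasome and ubiquitin and 0.02 over 17 of myelin and oligodendrocytes. Psma1, a core proteasome subunit, stood against the rest of its list at 0.44 ± 0.12 (SE, adjusted p = 0.0899), with overlapping groups. Mag, a glycoprotein of the myelin sheath, had 0.47 ± 0.13 (SE, adjusted p = 0.097), with adult replicate 4 at 6.98. The other 4 adult arrays lay between 7.62 and 7.78 and the impaired arrays ranged from 7.79 to 8.49 (median 8.01). Over 9 tested genes of endothelium and vessel wall the median was 0.18 (0.11 without impaired replicate 4). The median was -0.09 over 9 genes of Toll-like receptors and signalling, 0.06 over 11 chemokines and cytokines, -0.02 over 7 genes of oligodendrocyte precursors and 0.04 over 22 neuronal ion channels. It was -0.08 over 12 genes of glycolysis, 0.06 over 18 of cholesterol synthesis and 0.01 over 28 of oxidative stress defence and metal handling. No direction is read from these medians.

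Immediate early and activity-dependent genes had mostly negative differences, none of which passed. Of 18 tested genes 15 had a difference below 0, with a median of -0.23 (-0.20 without impaired replicate 4) and 0 calls. Over all genes 4334 of 7183 had a difference below 0, with a median of -0.04. Egr2, a zinc finger factor of the early growth response family, had 8.46, 8.64, 8.53, 8.84 and 8.80 on the adult arrays and ranged from 8.12 to 8.44 (median 8.23) on the impaired arrays. These did not overlap, and the difference was -0.38 ± 0.09 (SE, adjusted p = 0.0657). Egr1 stood at -0.26 ± 0.10 (SE, adjusted p = 0.186), the secreted peptide precursor Vgf at -0.43 ± 0.17 (SE, adjusted p = 0.207), the synaptic plasticity gene Arc at -0.30 ± 0.19 (SE, adjusted p = 0.41) and Fos at -0.41 ± 0.35 (SE, adjusted p = 0.541). The spread of Fos was wide in both groups, from 5.75 to 7.22 on the adult and 5.41 to 7.10 on the impaired arrays.

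Of the 21 genes that the study followed by quantitative PCR, 16 have a probe and 14 were tested. Of the 14, C1s, Cd74, Fcgr2b and Serping1 passed (26 of 7183 were higher over all genes) and are given above. A difference above 0 was seen in 13 of 14 (2849 of 7183 over all genes), with a median of 0.59 (0.48 without replicate 4). The study chose these genes on these same arrays, so their direction is not independent evidence. The Toll-like receptors Tlr2 and Tlr7 had 0.33 ± 0.13 (SE, adjusted p = 0.195) and 0.49 ± 0.12 (SE, adjusted p = 0.0806), and the adhesion receptor Icam1 0.31 ± 0.13 (SE, adjusted p = 0.236). The exception was Hsbp1, a heat shock factor binding protein, at -0.08 ± 0.08 (SE, adjusted p = 0.564). The study reported every gene of this set as higher in both aged groups on its arrays, by a fold cutoff and a post hoc test. That criterion differs from the adjusted p used here. By quantitative PCR the study also reported Hsbp1 as higher in synaptosomes of impaired rats. The Hsbp1 probe did not show that rise here, and the reason was not tested.

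Impaired replicate 4 stood above the other impaired rats more often in genes of some immune lists than of others. On it 210 tested probes lay over 0.5 log2 units above every other impaired array, where the other 6 arrays had between 0 and 53 such probes, and 3 lay as far below. Its mean signal of 444 was the median of the 7, and its 11565 detected probes were the highest number among the 12. The largest gaps were those of Plac8, a cysteine-rich protein of leukocytes, Ifi27l2b, an interferon-induced protein, and C4b. Plac8 had 5.84, 5.70, 5.76, 6.22 and 6.19 on the adult arrays and 6.51, 7.08, 6.66, 12.08, 6.42, 6.99 and 6.88 on the impaired arrays. Ifi27l2b had 6.04, 5.84, 5.76, 6.00 and 5.75 on the adult and 6.13, 6.10, 5.64, 10.79, 5.90, 6.18 and 6.00 on the impaired arrays. Outside replicate 4, the impaired arrays of Ifi27l2b lay in the adult range or close to it, with a difference of 0.11 (adjusted p = 0.64), whereas those of Plac8 were all above the adult arrays and differed by 0.82, with adjusted p = 0.00448. By list, replicate 4 exceeded the next impaired array by over 0.5 in 10 of 16 tested microglia genes, 8 of 15 complement genes, 7 of 13 interferon-induced genes, 6 of 9 Fc receptor genes and 7 of 17 MHC class I genes, against 162 of 7183 over all genes. In 3 of 12 MHC class II genes, 5 of 29 lysosomal genes, 1 of 9 Toll-like receptor genes and 1 of 11 chemokine and cytokine genes it did so as well. The secreted Lgals3bp, a binding partner of galectin-3, lay at 9.65 on it and at no more than 7.71 on the other impaired arrays. In the lists of astrocytes, myelin, synaptic vesicles, glutamate receptors and GABA neurons 0 genes lay that far above. The choroid plexus transcript Ttr was at its lowest of the 12 arrays there, at 6.16, as was Vgf at 6.76. The genes Plac8, Ifi27l2b, C4b, Fcgr3a, Gbp2, Mx1, Cd68 and Aif1 lie outside the rule for named genes and were chosen after their values were seen. The same holds for B2m, Ifi30, P2ry12, Trem2, Npy, Sst, Arc, Fos, C1qb, C2, Lgals3bp, Ctss and Gad1.

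**Figure D3:**
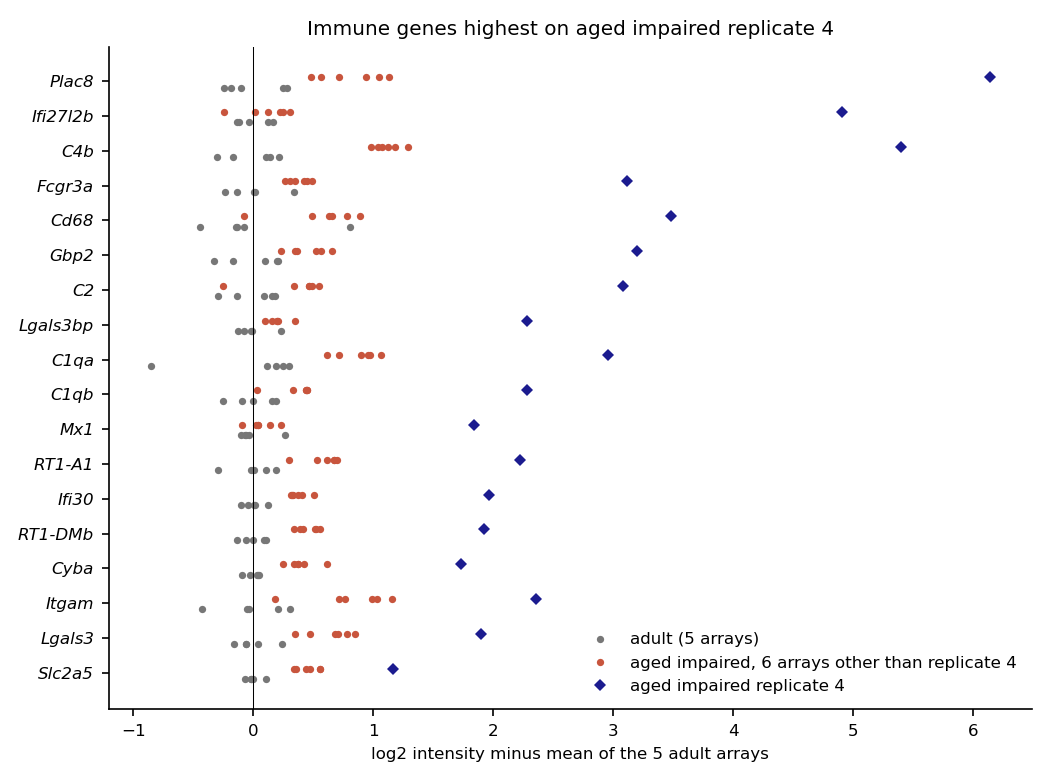
Log2 intensity of 18 immune genes on every array, as the distance from the adult mean (horizontal axis), with adult arrays in grey, 6 impaired arrays in red and impaired replicate 4 as blue diamonds. The 6 red points lie above the grey ones in C4b and RT1-A1 and mix with them in Ifi27l2b and Mx1.

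Without impaired replicate 4, 67 probes were higher (0.652% of 10270) and 5 lower (0.0487%), and 50 genes passed instead of 30. That left out 2 of the 30, Snx5 and Pnoc, and added 22. Among the 22 were C4b, RT1-A1, RT1-A2, Plac8, Lgals3, Itgam, Itgb2, RT1-DMb, C1qa and Ifi30, given above, and Cyba, a subunit of the phagocyte oxidase, at 0.39 with adjusted p = 0.0211, Srgn, a proteoglycan of secretory granules, at 0.60 with adjusted p = 0.0284, Slc2a5, a fructose transporter of microglia, at 0.45 with adjusted p = 0.049, Ctsh, a cysteine protease, at 0.37 with adjusted p = 0.0421, and Tmem176b at 0.41 with adjusted p = 0.0211. In all of these replicate 4 was itself the highest array, and leaving it out lowered both the difference and its standard error. In the other 7 replicate 4 was nearer to the adult arrays than the mean of its group, and the difference grew. Spp1, the secreted phosphoprotein osteopontin, had 7.25, 7.25, 7.50, 7.62 and 7.44 on the adult and 8.11, 8.04, 7.40, 7.42, 8.09, 8.04 and 8.08 on the impaired arrays, and differed by 0.55 (adjusted p = 0.0333) without replicate 4. Klk6, a protease of oligodendrocytes, and Enpp6, an enzyme of newly formed oligodendrocytes, had 0.46 (adjusted p = 0.0406) and 0.48 (adjusted p = 0.0421), Mcfd2, Fxyd1 and Atg5 0.51 (adjusted p = 0.0184), 0.47 (adjusted p = 0.0421) and 0.43 (adjusted p = 0.0423), and Grin3b, a subunit of NMDA receptors, was the 1 lower gene at -0.41 (adjusted p = 0.0421). All 22 were chosen by this left-out fit, after the values were seen. Of the 50 probes called with all arrays, 45 were called without impaired replicate 4 and 30 without adult replicate 4.

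**Figure D4:**
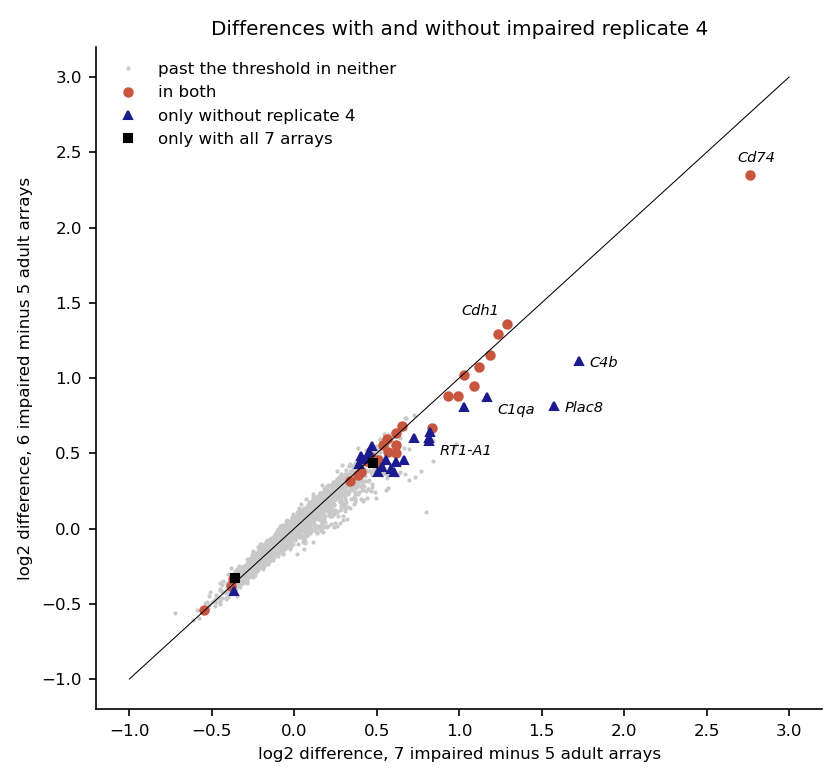
Log2 difference of impaired minus adult rats for 7183 genes, with all 7 impaired arrays (horizontal axis) and without impaired replicate 4 (vertical axis); the line marks equal values. Red circles passed in both fits, the 22 blue triangles without replicate 4 and the 2 black squares with all arrays, and Cd74, C4b and Plac8 lie below the line.

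Aged intact rats, of the same age and slide as the impaired ones, place these differences beside maze performance. Between impaired and intact rats 0 of 10270 probes (0%) passed in limma, the smallest adjusted p was 0.996, and 356 probes had an unadjusted p under 0.05. Against the same 5 adult arrays, which both comparisons share, Cd74 had 2.76 ± 0.39 (SE) in impaired and 2.53 ± 0.42 in intact rats. Vim had 1.18 and 1.15, Hspb1 1.03 and 1.16, Serping1 1.12 and 1.28, and Cdh1 1.29 and 1.44. In these genes the estimates of both aged groups were close, and the impaired minus intact differences of the 5 ranged from -0.16 to 0.23 with standard errors from 0.10 to 0.39. The largest differences between the aged groups among the 30 called genes were those of Rbbp7 (0.65 and 0.32 against adults), St14 (0.83 and 0.54) and Mospd2 (0.62 and 0.33). Tmem178a had -0.37 in impaired and -0.20 in intact rats. None of these differences was past the threshold between the aged groups, which does not show that they are alike.

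**Figure D5:**
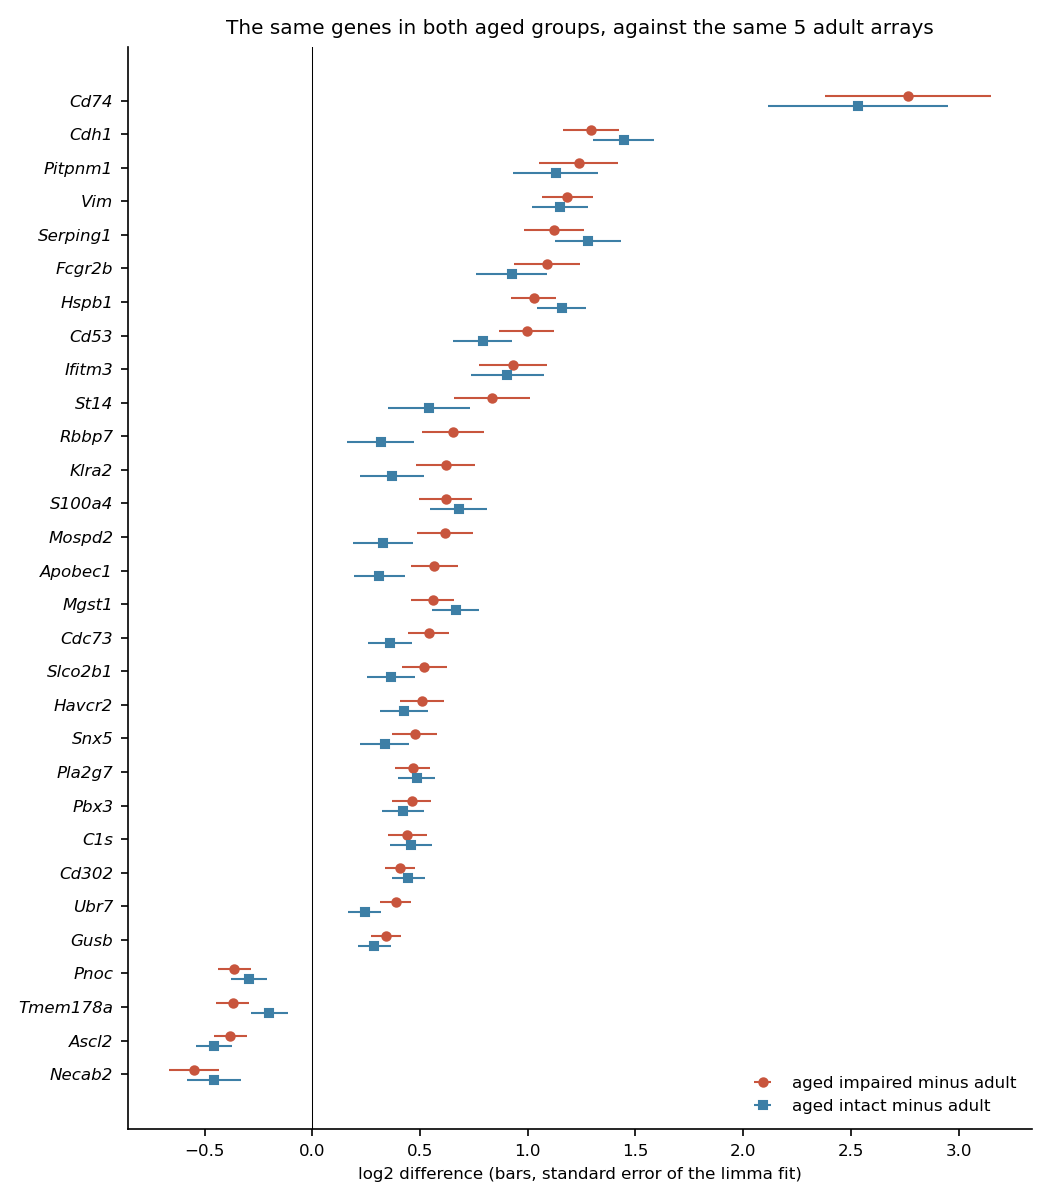
Log2 difference from the same 5 adult arrays for the 30 called genes (horizontal axis), in aged impaired rats (red circles) and aged intact rats (blue squares), with bars for the standard error of the limma fit. Estimates for Cd74, Vim and Pla2g7 lie within 1 bar of each other, and those for Rbbp7 and Mospd2 lie further apart.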

How the data were processed

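RNA of hippocampal synaptosomes was labelled as biotinylated cRNA and hybridized to Illumina RatRef-12 bead arrays, 1 per rat. The probe intensity values were deposited as average bead signals that the authors read in GenomeStudio (1.0.6 in the submitters' processing notes), not background-subtracted and not normalized between arrays. Each deposited detection p-value compares a probe with the negative control beads of its array. These are arrays, so precision is set by how many there were. A second deposited table held the same signals (largest difference 0).

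In R 4.3.3 with limma 3.58.1, signals were background-corrected by normexp, with the mean and SD of the background read from the middle of the negative controls through the detection p-values, then an offset of 16, quantile normalization and log2 were applied. All 17 arrays entered 1 fit (lmFit and eBayes) with a mean for each of the 3 groups, two-sided, and p-values were adjusted by Benjamini-Hochberg over 10270 probes at 0.05. GEO's labels gave the groups, with 0 arrays unassigned. Whether rats of a group shared a litter or a preparation is not given in the sources used here, so p-values measure the spread between these arrays. The script was tested on simulated data with known changes.

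Gene symbols came from the platform annotation, updated by Entrez identifier: 13192 probes have 1 symbol and 9034 have none, 13151 were updated and 41 kept as annotated. A gene is represented by its tested probe with the highest mean log2 intensity. Named genes are all called genes, those the study followed by quantitative PCR and up to 3 members of each of 31 gene lists by p, and others are said to be chosen after their values were seen. The members and lists were chosen with earlier results of these data known. Promoters are those of RefSeq for GRCr8. Alternatives covered the background, normalization, offset, filter, samples in the fit, variance prior, array weights, slide position, replicate block, fold threshold, the methods' test, probe of a gene, and each array left out.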

Additional observations from a re-analysis of the deposited data

Results flagged for a closer look

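In 44 of the 200 groups of arrays given by 100 named genes in adult and impaired rats, and in 11 of the 62 given by 31 list means, 1 array lay far from the others, by the gap to its nearest neighbour as a share of the whole range (Dixon's ratio). Some of these genes were chosen after the values of impaired replicate 4 were seen, or by the fit without it. The counts are therefore not set against a chance rate. Impaired replicate 4 was the high array in most.

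Its ratio was 0.777 in Aif1, 0.807 in C1qa, 0.813 in C1qb, 0.759 in C2, 0.929 in C4b, 0.672 in Cd53, 0.728 in Cd68, 0.81 in Fcgr1a, 0.727 in Fcgr2b, 0.922 in Fcgr3a, 0.734 in Icam1, 0.735 in Slc2a5 and 0.7 in Tmem176b, most of them genes of myeloid cells, complement, Fc receptors or adhesion. It was 0.806 in Cd74, 0.812 in Ctsh, 0.857 in Gbp2, 0.894 in Ifi27l2b, 0.885 in Ifi30, 0.888 in Lgals3bp, 0.834 in Mx1, 0.885 in Plac8, 0.793 in RT1-A1, 0.656 in RT1-A2 and 0.863 in RT1-DMb, genes of antigen presentation or induced by interferon or in leukocytes. It was 0.649 in Cd302, 0.67 in Cp, 0.751 in Cyba, 0.597 in Klra2, 0.677 in Lgals3, 0.703 in Slco2b1, 0.757 in Srgn and 0.65 in St14 among the others. By list mean, impaired replicate 4 was high at a ratio of 0.831 in Fc receptors and adaptors, 0.592 in MHC I and peptide loading, 0.771 in MHC II and antigen processing, 0.625 in Toll-like receptors and signalling, 0.687 in complement, 0.719 in the genes followed by quantitative PCR, 0.865 in interferon-induced and 0.805 in microglia and macrophages. It was low at a ratio of 0.611 in Vgf. Impaired replicate 6 was high at a ratio of 0.604 in Mag and low at 0.574 in Pon2.

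Among adult arrays, replicate 4 was low at a ratio of 0.845 in C1qa, 0.778 in Gabra2 and 0.797 in Mag, and high at 0.734 in Aif1, 0.824 in Mx1 and 0.711 in Npy. Its list mean was low at a ratio of 0.767 in GABA and interneurons and 0.875 in synaptic vesicle and release. Adult replicate 2 was low at a ratio of 0.828 in Fcgr2b and 0.779 in S100a4, adult replicate 1 at 0.899 in Tmem140, and adult replicate 5 was high at a ratio of 0.768 in myelin and oligodendrocytes.

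Some genes failed the detection filter of the comparison and were detected on impaired replicate 4 and on no other impaired array, and on it they also lay above all adult arrays. Their log2 intensity there was 7.50 for Zbp1, 6.84 for Nsl1, 6.97 for Scin, 6.61 for Cxcl13, 6.38 for Cybb, 6.44 for RT1-N3, 6.66 for Fam229a and 6.23 for Rnase6. Zbp1 is a sensor of nucleic acids, Cxcl13 a chemokine for B cells and Cybb a subunit of the phagocyte oxidase.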

How the results depend on the processing

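Against 44 higher and 6 lower probes as reported, the counts moved by over 1.5 times in at least 1 direction under these settings, given as higher and lower: 27 and 11 with the neqc background, 46 and 12 without background correction, 46 and 12 with an offset of 50, 56 and 0 with median scaling, 345 and 0 without normalization, 28 and 3 with the 12 adult and impaired arrays only, 190 and 78 with array weights, 340 and 261 by the methods' test at its own threshold, 21 and 2 by the methods' test after Benjamini-Hochberg adjustment, and 76 and 2 without adult replicate 4 and impaired replicate 4. The cause was not tested. Median scaling and no normalization moved the median of all tested probes to 0.19 and 0.25, and gene differences there were taken relative to it. Leaving out 1 array gave 26 (without adult replicate 3) to 67 (without impaired replicate 4) higher probes and 1 (without adult replicate 4) to 12 (without intact replicate 4) lower ones, and 0 to 1 (without impaired replicate 5) probes between impaired and intact rats.

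Adult and impaired rats share replicate numbers 1 to 5 in the description labels, while the sample titles number the adults differently. Deviations of same-numbered arrays had correlations of -0.33, 0.21, 0.04, 0.05 and 0.19. So few values show no common pairing and cannot exclude one, and the main fit did not pair the rats. With the replicate block 18 probes were higher and 0 lower. Over the 100 named genes, 2967 values kept their direction and side of the threshold, 221 no longer passed, 203 came to pass and 1 changed sign: Aif1, from 0.16 to -0.013 without impaired replicate 4 (up to 0.22 without impaired replicate 2). Of the list medians 1037 moved by less than the spread between arrays and 17 by more, those of mitochondrial respiration and glycolysis to 0.06 and 0.02 with median scaling. Genes near background, such as Klra2 and Havcr2 in adult rats, have differences that depend on the background correction. Across all alternatives the difference ranged from 0.26 to 1.08 for Hspb1, 0.46 to 1.23 for Serping1 and 0.36 to 1.13 for Fcgr2b. It ranged from 0.23 to 1.06 for Ifitm3, 0.08 to 0.64 for Apobec1, 0.07 to 0.60 for Cdc73 and 2.34 to 2.95 for Cd74. Of the 50 called probes 26 were also called with the neqc background, among them 23 of the 44 higher ones.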
